A study of Mus musculus with 36 samples.

Results

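Silencing of the inactive X chromosome (Xi) was compared at day 7 of differentiation between mouse embryonic stem cells (mESCs) that lack LRIF1 and the Halo-SMCHD1 cells from which they were made. The comparison uses 5 of the 36 ChrRNA-seq samples of the series, all labelled day 7 of monolayer differentiation: 2 libraries of LRIF1 KO, clone E8, and 3 of Halo-SMCHD1, clone G2. ChrRNA-seq sequences RNA attached to chromatin and so follows transcription rather than stable mRNA. Both lines are hybrid XX cells with a TetOn promoter on the 129S copy of Xist, an rtTA activator, an N-terminal Halo tag on native SMCHD1 and eGFP-tagged CIZ1, and both were kept in 1 µg/ml doxycycline (dox) throughout differentiation. Alleles from 129S therefore mark the Xi, and those from Cast mark the active X chromosome (Xa). LRIF1 KO differs by the loss of Lrif1, made with 2 guides that cut in exons 1 and 4. Each line is a single clone, so differences between the genotypes and differences between the clones cannot be told apart. The study describes its replicates as independent repeats with 1 clone, so p-values measure the spread between such repeats and not between clones.

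In X chromosome inactivation, Xist RNA coats the chromosome from which it is transcribed and recruits factors that shut down most of its genes. SMCHD1, a non-canonical relative of the SMC proteins, accumulates on the Xi and keeps a subset of genes silent. LRIF1 binds SMCHD1 and proteins of the HP1 family, which read the histone mark H3K9me3, and has been linked to the loading of SMCHD1 on chromatin. The question addressed is whether silencing on the Xi is less complete when LRIF1 is missing.

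The deposited value of each gene in each library is the fraction of allele-specific reads that come from the Xi, Xi/(Xi+Xa), which is near 0.5 for a gene transcribed equally from both chromosomes and 0 for a gene with no reads from the Xi. The table lists 249 genes, of which 227 are protein-coding in the GENCODE annotation. They lie between positions 6047506 and 103484957 of the X chromosome (mm10, as the table gives them), so the part beyond Xist was not analysed here. The fractions come without read counts, which leaves the depth of each value unknown and allows no counting interval. A fraction averages over cells, so a small change in every cell and a loss of silencing in a few cells cannot be told apart. Before induction the median fraction was 0.518 in Halo-SMCHD1 and 0.522 in LRIF1 KO, with 1 library each. Xist itself was at 0.998 to 0.999 in the 5 libraries at day 7. Lrif1 and Smchd1 are autosomal, so neither the knock-out nor the cell type could be checked in these values. Halo-SMCHD1 replicate 1 stood apart from the other libraries, with 61 genes listed at 0 against 19 to 25 in the other 4. Several results are therefore given with and without it.

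The mean fraction from the Xi was slightly higher in LRIF1 KO, but the libraries of both lines overlapped. The mean fraction over the 249 genes was 0.0756 and 0.0906 in the 2 LRIF1 KO libraries, and 0.0625, 0.0723 and 0.0809 in the 3 Halo-SMCHD1 libraries. LRIF1 KO replicate 2 thus lay above all Halo-SMCHD1 libraries and replicate 1 lay below Halo-SMCHD1 replicate 3. The means, 0.0831 ± 0.0105 (SD, n = 2) and 0.0719 ± 0.00922 (SD, n = 3), differed by 0.0112 (two-sided exact permutation test, p = 0.4). With 2 libraries against 3 this test cannot give a p below 0.2. Leaving out LRIF1 KO replicate 2 gave a difference of 0.00377, leaving out LRIF1 KO replicate 1 gave 0.0187, and leaving out Halo-SMCHD1 replicate 1 gave 0.00653. Against the 2 libraries of the parental line iXist-ChrX, which has no Halo tag, the difference was -0.000628.

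Gene by gene, 167 of 249 genes (67.1%) had a higher mean in LRIF1 KO, 79 had a lower mean and 3 were equal. The change had a median of 0.00759 and quartiles of -0.00189 and 0.0273. In 53 genes, or 21.3% of those measured, both LRIF1 KO libraries lay above all 3 Halo-SMCHD1 libraries, and in 7 genes, or 2.81%, both lay below. They are called the raised and the fallen genes here, names that stand only for the order of the libraries. The median mean fraction of the raised genes was 0.0328 in Halo-SMCHD1 and 0.0768 in LRIF1 KO, both well under the level before induction. The gap between the lines was under 0.01 in 24 of the 53, and Halo-SMCHD1 replicate 1 was at 0 in 11. The lncRNA gene Firre was just inside, with a gap of 0.000483, and Tmem28, C330007P06Rik and Prrg3 were just outside, with a gap of 0.

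No gene passed the test across all genes. limma on the log2 odds of the fractions was fitted over 20 differentiated libraries in 9 groups of line and day. Besides the lines compared, these were iXist-ChrX, SMCHD1 KO (clone SmA3) and the SMCHD1 mutants E147A, Y353C and G137E. Some Halo-SMCHD1 and G137E libraries were from an earlier day, and the K518E libraries were not included. The fit gave 0 genes with an adjusted p under 0.05, and the smallest adjusted p was 0.133. At an unadjusted p under 0.05 it gave 28 genes, 25 of them (10%) higher and 3 (1.2%) lower in LRIF1 KO. Of the raised genes 23 were among the 25, and of the fallen genes 3 were among the 3. The 25 genes became 15 without Halo-SMCHD1 replicate 1, and also 15 without LRIF1 KO replicate 2. The median log2 odds change over all genes was 0.26, so changes of single genes on that scale are best read against it.

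**Figure D1:**
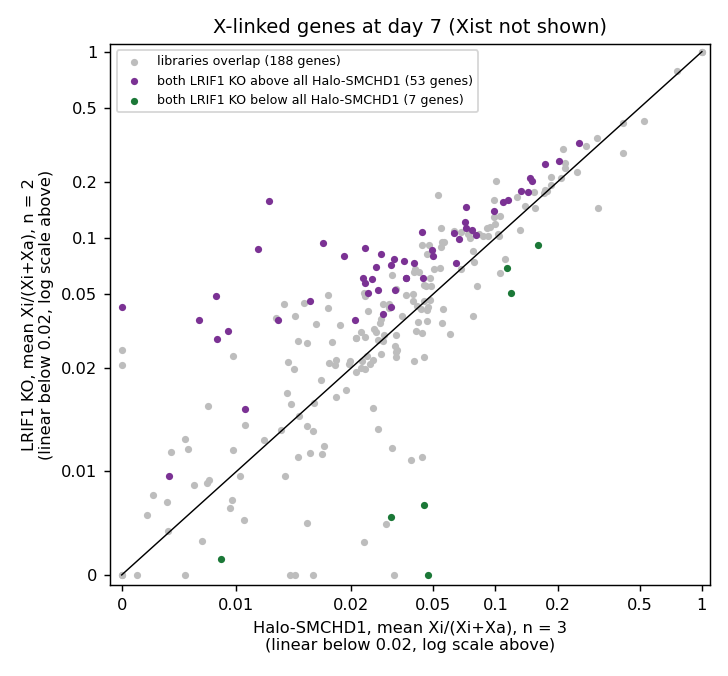
Mean Xi/(Xi+Xa) of each gene at day 7 in Halo-SMCHD1 (horizontal axis, n = 3) and LRIF1 KO (vertical axis, n = 2), as fractions on axes that are linear below 0.02 and logarithmic above, with the diagonal of equal values. The 53 purple genes, whose libraries do not overlap, lie above the diagonal over most of the range, and the 7 green genes lie below it.

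The scatter of the 2 means shows raised genes from 0 in Halo-SMCHD1, for Prickle3, up to 0.253, for Kdm6a. Among genes of chromatin and transcription, the highest difference was that of Kdm6a, which encodes a demethylase of H3K27me3 and is known to escape X inactivation (chrX:18162666-18279358). Kdm6a was at 0.301 and 0.344 in LRIF1 KO against 0.232, 0.257 and 0.270 in Halo-SMCHD1, a difference of 0.0696 (limma log2 odds 0.48, SE 0.19, adjusted p = 0.380). Ogt, the enzyme that adds O-GlcNAc to proteins, was at 0.160 and 0.161 in LRIF1 KO and at 0.106, 0.111 and 0.128 in Halo-SMCHD1. Its neighbour Taf1, a subunit of TFIID, was at 0.148 and 0.131 against 0.0869, 0.0936 and 0.116.

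Genes of RNA metabolism had differences of similar size. Nkap, a nuclear protein of transcription and splicing (chrX:37126762-37150746), was at 0.266 and 0.234 in LRIF1 KO and at 0.156, 0.186 and 0.177 in Halo-SMCHD1. The difference of 0.0768 was the second highest among the raised genes (limma adjusted p = 0.380). Ddx3x, an RNA helicase that also escapes in part, was at 0.171 and 0.246 against 0.116, 0.162 and 0.162. For Rbmx2, a protein with an RNA recognition motif, the libraries overlapped: 0.246 and 0.354 in LRIF1 KO and 0.171, 0.205 and 0.259 in Halo-SMCHD1.

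Among signalling genes, Araf, a RAF kinase of the MAP kinase pathway (chrX:20848542-20852905), was at 0.153 and 0.139 in LRIF1 KO and at 0.0703, 0.0619 and 0.0828 in Halo-SMCHD1. The lines were well apart, and Araf was among the genes with the smallest limma p (log2 odds 1.06, SE 0.29, adjusted p = 0.133). Its values before induction were 0.530 in Halo-SMCHD1 and 0.486 in LRIF1 KO. Igbp1, a regulatory partner of the phosphatase PP2A, was at 0.260 and 0.259 against 0.191, 0.195 and 0.223. Mtcp1, a coactivator of AKT of the TCL1 family, was at 0.0662 and 0.0874 against 0.0238, 0.0424 and 0.0311 (limma adjusted p = 0.133).

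Genes of the nuclear envelope, cytoskeleton and mitosis included several clear separations at low levels. Flna, the actin crosslinker filamin A (chrX:74223460-74246534), was at 0.0758 and 0.0459 in LRIF1 KO and at 0.0215, 0.0234 and 0.0239 in Halo-SMCHD1 (limma log2 odds 1.13, SE 0.30, adjusted p = 0.133). Emd, which follows it in the table and encodes the inner nuclear membrane protein emerin, was at 0.0588 and 0.118 against 0.0247, 0 and 0.0455. Haus7, a subunit of the augmin complex of the spindle, was at 0.0945 and 0.0686 against 0.0123, 0.0217 and 0.05. In all 3 genes the groups stay apart, with Halo-SMCHD1 at or under 0.05. Ercc6l, a DNA translocase of mitotic chromatin, was at 0.0745 and 0.0653 against 0.0352, 0.0181 and 0.0263.

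Metabolic and mitochondrial genes among the raised ones were Idh3g, a subunit of the NAD-dependent isocitrate dehydrogenase, Taz, the cardiolipin enzyme tafazzin, the sterol enzyme Nsdhl and the sulfotransferase Chst7. Idh3g was at 0.179 and 0.225 in LRIF1 KO and at 0.167, 0.129 and 0.157 in Halo-SMCHD1. Taz was at 0.0645 and 0.0962 against 0, 0.0392 and 0.0189. Chst7 was at 0.0366 and 0.0358 against 0, 0.00826 and 0.0119, with an adjusted p of 0.133 by limma. The mitochondrial import gene Timm17b had a higher difference, 0.102, but its libraries overlapped, since Halo-SMCHD1 was at 0.0357, 0.0526 and 0.214 and LRIF1 KO at 0.171 and 0.235.

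The highest difference of all raised genes was that of Nudt10, a Nudix hydrolase of inositol pyrophosphates (chrX:6168695-6172991), which was at 0.167 and 0.15 in LRIF1 KO and at 0, 0.0385 and 0 in Halo-SMCHD1. Its value before induction was lower in LRIF1 KO, at 0.317 against 0.444. Tenm1, a teneurin of the cell surface, was at 0.138 and 0.0354 against 0, 0.0109 and 0.0247, and so rested on LRIF1 KO replicate 1 for most of its difference of 0.0748. Cul4b, the scaffold of a ubiquitin ligase, was at 0.103 and 0.111 against 0, 0.0377 and 0.0943, a wide spread within Halo-SMCHD1. The V-ATPase assembly factor Vma21 was at 0.139 and 0.104 against 0.0662, 0.0658 and 0.0822, and the lincRNA Gm14827 was at 0.0625 and 0.125 against 0, 0 and 0.0526. Prickle3, a planar polarity gene named after its values were seen, was the only gene listed at 0 in all 3 Halo-SMCHD1 libraries and above 0 in both LRIF1 KO libraries, at 0.04 and 0.0455.

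**Figure D2:**
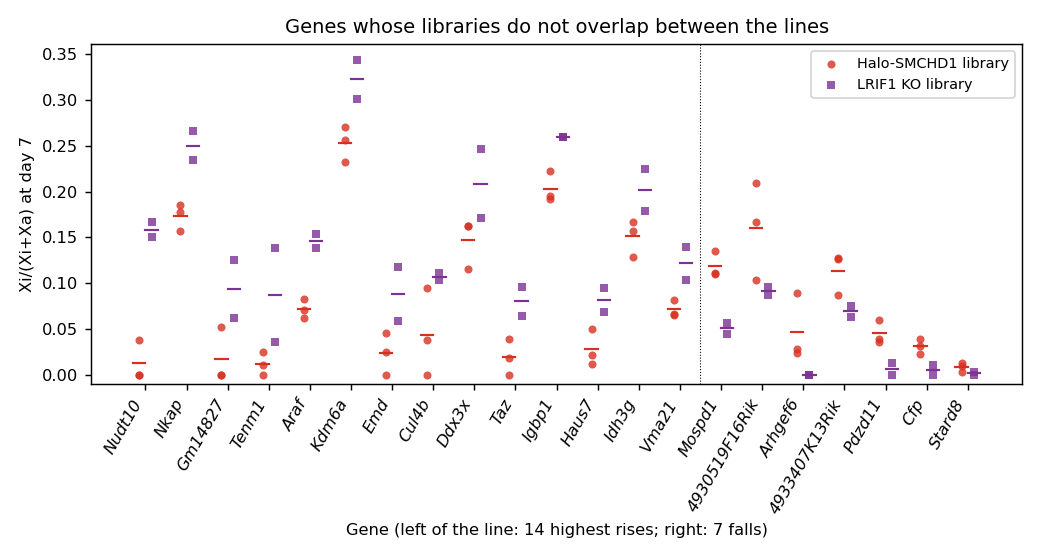
Xi/(Xi+Xa) at day 7 (vertical axis, fraction) of the 14 raised genes with the highest difference and the 7 fallen genes (horizontal axis). Red circles are the 3 Halo-SMCHD1 libraries, purple squares the 2 LRIF1 KO libraries and short lines their means. Kdm6a is the highest of the 21 genes in both lines, and Arhgef6 is at 0 in both LRIF1 KO libraries.

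The plot of single libraries also shows the 7 fallen genes. Mospd1, a membrane protein with an MSP domain (chrX:53344593-53370559), was at 0.0570 and 0.0442 in LRIF1 KO and at 0.111, 0.135 and 0.110 in Halo-SMCHD1, a difference of -0.0682 (limma log2 odds -1.20, SE 0.49, adjusted p = 0.380). The pseudogene 4930519F16Rik, which lies 0.227 Mb from Xist, was at 0.0962 and 0.0874 against 0.167, 0.104 and 0.209. Both groups of Mospd1 were tight, whereas 4930519F16Rik left a gap of less than 0.01 to the nearest Halo-SMCHD1 library.

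Arhgef6, an exchange factor for RAC1 and CDC42 (chrX:57231484-57338729), was listed at 0 in both LRIF1 KO libraries and at 0.0244, 0.0889 and 0.0278 in Halo-SMCHD1. Pdzd11, a PDZ domain protein of cell junctions (chrX:100622905-100625907), was at 0.0135 and 0 against 0.0364, 0.0392 and 0.06. It had the smallest p of all genes (limma log2 odds -1.88, SE 0.42, adjusted p = 0.133). Without LRIF1 KO replicate 1 its adjusted p was 0.0403, from a fit in which the remaining LRIF1 KO library is assumed to vary like the other groups. Over all alternatives the adjusted p of Pdzd11 ranged from 0.0403 to 0.479. Kif4, a chromosome-associated kinesin on the opposite strand that starts 157 bases from Pdzd11 in the table, went the other way, at 0.0447 and 0.0571 against 0.0220, 0.0226 and 0.0276; it is named here after its values were seen.

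The other fallen genes were the noncoding 4933407K13Rik, at 0.0631 and 0.0753 against 0.126, 0.0872 and 0.127, Cfp, the complement factor properdin, and Stard8. Cfp was at 0.0112 and 0 in LRIF1 KO and at 0.0227, 0.0316 and 0.0395 in Halo-SMCHD1. Stard8 was almost silent in both lines, at 0.00317 and 0 against 0.00366, 0.0127 and 0.00962. After scaling each library to its own median log2 odds, 30 genes rather than 7 had no overlap and were lower, and 25 rather than 53 were higher, so the split between raised and fallen genes depends on whether libraries are compared as deposited. The genes with the most negative differences did not separate: Tsix was at 0.240 and 0.0495 against 0.186, 0.647 and 0.111. Slc25a5, an ADP/ATP carrier, was at 0.321 and 0.249 against 0.438, 0.25 and 0.55. Whether processed copies of Slc25a5 elsewhere in the genome affect its values was not tested.

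The promoters of raised and fallen genes were described by their CpG content, which the choice of genes did not use. Each window holds 250 bases before and 50 after a transcription start in RefSeq (GRCm38.p6). A window was found for 210 of 249 genes, 44 of the 53 raised and the 7 fallen. Raised genes had a median of 16.5 CpG per window against 17 over all genes, and the observed over expected CpG ratio was at least 0.6 in 63.6% against 61.0%. The 7 fallen genes had a median of 9 CpG, and 28.6% of them reached that ratio. For 2 raised genes, Nudt10 with the highest difference and Araf with the highest among those with the smallest p, and 2 fallen genes, Pdzd11 with the smallest p and Arhgef6 with both LRIF1 KO libraries at 0, the 250 bases before the start follow, 5′ to 3′ on the strand of the gene, with CpG in capitals:
Nudt10: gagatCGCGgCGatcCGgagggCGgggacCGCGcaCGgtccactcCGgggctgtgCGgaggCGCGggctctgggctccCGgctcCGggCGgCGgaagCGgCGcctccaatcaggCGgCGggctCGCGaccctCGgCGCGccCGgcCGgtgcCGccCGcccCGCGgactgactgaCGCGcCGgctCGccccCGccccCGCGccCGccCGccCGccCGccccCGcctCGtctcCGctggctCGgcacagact
Araf: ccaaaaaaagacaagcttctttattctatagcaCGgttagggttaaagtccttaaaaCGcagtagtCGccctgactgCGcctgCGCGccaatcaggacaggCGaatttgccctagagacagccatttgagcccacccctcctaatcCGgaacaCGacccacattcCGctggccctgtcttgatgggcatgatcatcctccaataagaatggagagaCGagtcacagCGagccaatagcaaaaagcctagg
Pdzd11: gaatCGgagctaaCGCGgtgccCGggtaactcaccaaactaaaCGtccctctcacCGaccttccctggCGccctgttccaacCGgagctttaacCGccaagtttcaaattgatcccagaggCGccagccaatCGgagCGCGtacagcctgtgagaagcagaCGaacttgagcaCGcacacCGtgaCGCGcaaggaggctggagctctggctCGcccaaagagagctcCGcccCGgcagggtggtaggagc
Arhgef6: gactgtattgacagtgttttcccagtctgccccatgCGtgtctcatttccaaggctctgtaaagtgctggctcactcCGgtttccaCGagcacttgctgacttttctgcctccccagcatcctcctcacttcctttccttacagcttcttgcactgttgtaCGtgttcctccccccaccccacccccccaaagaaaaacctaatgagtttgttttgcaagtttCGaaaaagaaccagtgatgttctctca

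The windows are chrX:6172992-6173241 on the minus strand for Nudt10, with 46 CpG, and chrX:20848293-20848542 on the plus strand for Araf, with 12. Those of the fallen genes are chrX:100625942-100626191 on the minus strand for Pdzd11, with 21 CpG, and chrX:57338730-57338979 on the minus strand for Arhgef6, with 5. Over the full windows the count ran from 0 to 51 CpG in raised genes and from 1 to 28 in fallen genes. The Pdzd11 window runs across the start of Kif4. CG was searched as 2 letters, which read the same on both strands, and occurs at least once in 98.1% of the windows of all genes. These counts describe the windows and say nothing of bound factors.

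Along the chromosome, the mean change was above 0 in each of the 11 segments of 10 Mb that hold at least 5 genes, but it was higher in the proximal part, far from Xist. In the first segment, 0 to 10 Mb, 30 of 34 genes were higher and 10 were raised (29.4% against 21.3% over all genes). Its mean in LRIF1 KO was 0.0947 and 0.119 and in Halo-SMCHD1 0.0661, 0.0877 and 0.0926, a difference of 0.0249. Without Halo-SMCHD1 replicate 1 the difference was 0.0169. Both LRIF1 KO libraries lay above all Halo-SMCHD1 libraries, which gives the smallest p the exact permutation test allows here, 0.2. The segment from 40 to 50 Mb separated in the same way, at 0.0582 and 0.0690 against 0.0419, 0.0513 and 0.0565. With iXist-ChrX as the control, LRIF1 KO differed by -0.0088 from 0 to 10 Mb, -0.0077 from 10 to 20 Mb and -0.0075 from 20 to 30 Mb. It differed by 0.0080 from 30 to 40 Mb, 0.0054 from 40 to 50 Mb and 0.0055 from 100 Mb on. The higher change in the proximal part thus depended on the control.

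Against Halo-SMCHD1, 80 of 101 genes below 50 Mb were higher and the mean difference was 0.0188. In this block 25 genes were raised (24.8% against 21.3% over all genes). From 50 to 70 Mb, 14 of 31 genes were higher, the mean difference was 0.0011 and 16.1% were raised. The segment from 50 to 60 Mb held 5 raised genes (19.2%) and the fallen genes Mospd1 and Arhgef6. From 70 to 80 Mb, the most gene-dense segment, 41 of 59 genes were higher and the mean difference was 0.0105. Here 14 genes were raised (23.7%), including Flna, Emd, Haus7, Idh3g, Taz and Vma21. Beyond 80 Mb the mean difference was 0.0041 over 58 genes and 15.5% were raised. From 100 Mb on 8 of the 26 genes were raised (30.8%), including Igbp1, Ogt and Ercc6l. These 4 blocks were chosen after the segment values were seen. Measured against the mean change of each library, the first segment remained higher by 0.0137 and the segment from 50 to 60 Mb differed by -0.0104, both without overlap of the libraries. On that scale 10 to 20 Mb also remained higher (0.0065) and 90 to 100 Mb lower (-0.0056) without overlap, whereas 40 to 50 Mb overlapped (0.0025, exact permutation test, p = 0.6).

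**Figure D3:**
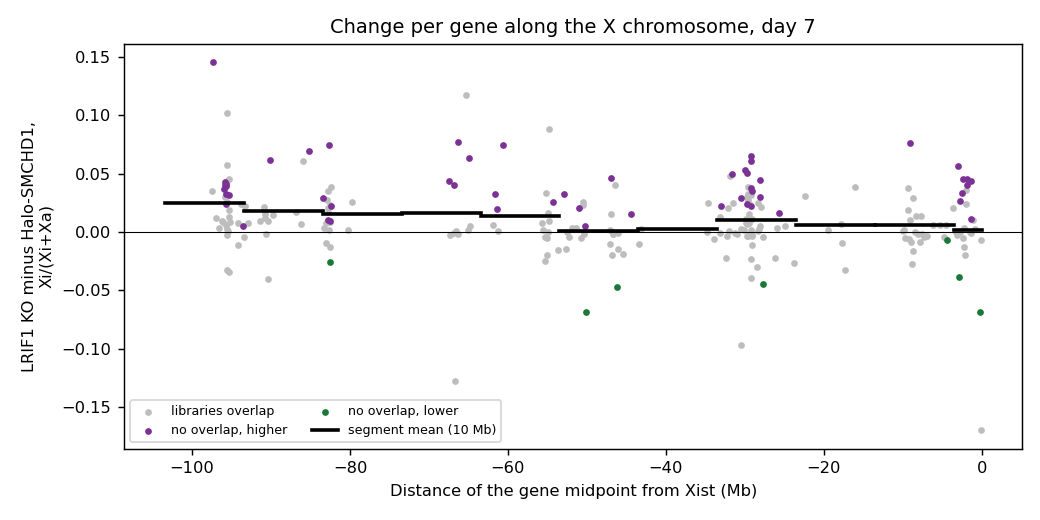
Change in Xi/(Xi+Xa) at day 7, LRIF1 KO minus Halo-SMCHD1 (vertical axis, fraction), of each gene except Xist against the distance of its midpoint from Xist (horizontal axis, Mb). Purple genes are raised, green genes are fallen, and black lines are means over segments of 10 Mb, at 0.0249 in the segment farthest from Xist and 0.0021 in that next to it.

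The chromosome plot shows raised genes in most segments. Some were neighbours in the table, as 1 run of 3 and 9 pairs, and no test was made of whether this exceeds what 53 of 249 genes would give. The run of 3 held Ppp1r3f, Ccdc22 and Prickle3 (chrX:7558561-7668186, mean change 0.0399). The pairs were Gpkow and Wdr45, Tfe3 and Gripap1, Kdm6a and Chst7, Usp11 and Araf, Thoc2 and Xiap, Flna and Emd, Mtcp1 and Brcc3, Taf1 and Ogt, and Ercc6l and Rps4x. Mtcp1 and Brcc3 start 84 bases apart on opposite strands. The change of a gene and its position had a Spearman correlation of 0.210 with the distance from Xist, given as a description over 248 genes that share the same 5 libraries. Without LRIF1 KO replicate 2 the mean change below 50 Mb was 0.0088 and from 50 to 70 Mb -0.0072.

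How fast a gene was silenced after Xist induction went with the size of the change. Genes were put into 3 classes by their value after 24 h with dox divided by the value before induction in Halo-SMCHD1, which are libraries that the comparison at day 7 does not use. Of the 83 slowly silenced genes, 70 were higher in LRIF1 KO (84.3%), with a median change of 0.0244, and 23 were raised. Of the 82 genes in the middle class 60 were higher and 21 were raised, with a median of 0.0094. Of the 83 fast genes 37 were higher (44.6%), with a median of -0.00062, and 9 were raised while 5 of the 7 fallen genes were in this class. On the log2 odds scale, the medians were 0.39, 0.31 and 0.00 from slow to fast. That scale adds 0.01 to each fraction, which dampens changes near 0 most. At least 1 library was listed at 0 in 42 of the 83 fast genes and 13 of the 83 slow genes.

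**Figure D4:**
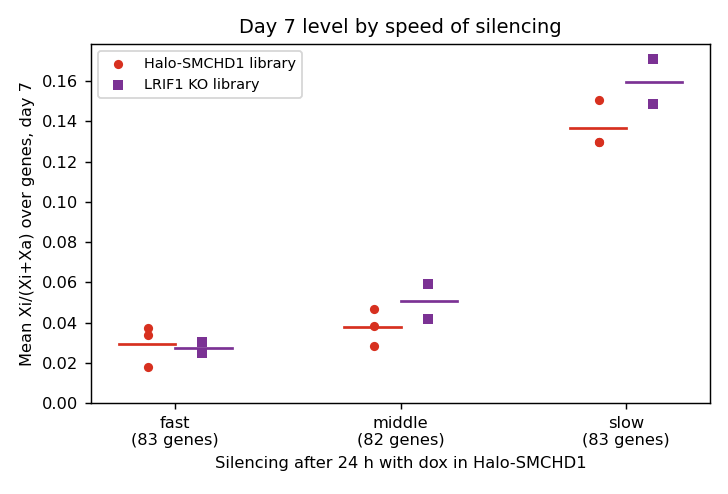
Mean Xi/(Xi+Xa) at day 7 (vertical axis, fraction) over fast, middle and slow genes (horizontal axis) in each library, with red circles for Halo-SMCHD1, purple squares for LRIF1 KO and lines for their means. Slow genes are the highest in all libraries. The mean of LRIF1 KO is above that of Halo-SMCHD1 for slow and middle genes but not for fast genes, and the libraries overlap in each class.

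In the plot of classes, slow genes averaged 0.149 and 0.171 in the LRIF1 KO libraries and 0.130, 0.130 and 0.151 in Halo-SMCHD1, so LRIF1 KO replicate 1 remained just under Halo-SMCHD1 replicate 3 (exact permutation test, p = 0.4). Genes of the middle class averaged 0.0420 and 0.0591 against 0.0283, 0.0384 and 0.0468, which also overlap. Fast genes averaged 0.0247 and 0.0305 against 0.0179, 0.0372 and 0.0339. With any 1 of the 5 libraries left out, an alternative chosen after the class values were seen, the share of higher genes was 67.5% to 89.2% in the slow class and 28.9% to 55.4% in the fast class. Speed and position go together: 50 of the 101 genes below 50 Mb were slow, against 1 of 31 from 50 to 70 Mb. Beyond 80 Mb 12 of 13 slow genes and 11 of 30 fast genes were higher, and below 50 Mb 43 of 50 slow genes and 9 of 16 fast genes. Whether speed or position goes with the change was not tested.

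Measured genes listed as known to escape silencing all had a higher mean in LRIF1 KO than in Halo-SMCHD1, against 67.1% of all genes. Of the 5 measured escape genes, Kdm6a and Ddx3x were raised, against 21.3% of all genes. Eif2s3x, a subunit of the initiation factor eIF2, was at 0.230 and 0.244 in LRIF1 KO and at 0.188, 0.227 and 0.240 in Halo-SMCHD1. Utp14a, a ribosome assembly factor, was at 0.221 and 0.281 against 0.224, 0.205 and 0.224. The actin regulator Shroom4 was at 0.0323 and 0.0526 against 0.0198, 0.0349 and 0.0367, and like Eif2s3x and Utp14a it overlapped. In Halo-SMCHD1 the mean of Shroom4, 0.0305, was below the median over all genes, 0.0325, so its level showed no escape here. The median change of the 5 was 0.0336 against 0.00759 over all genes. Scaling the libraries to their medians turned Eif2s3x and Utp14a to the other direction. With iXist-ChrX as the control, Ddx3x differed by 0.0568, Kdm6a by 0.0110 and Eif2s3x by 0.0059, whereas Utp14a differed by -0.0199 and Shroom4 by -0.0165. Of the listed genes around Xist, Tsix and Chic1 were measured and neither was raised. Chic1, which lies 0.0955 Mb away, was at 0.0341 and 0.0366 against 0.0203, 0.0436 and 0.0621.

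The functional lists were read against all genes, of which 67.1% were higher and 21.3% raised. RNA processing and translation had 15 of 20 genes higher, 5 of them raised, with a median change of 0.022. Cell division, DNA repair and cytoskeleton had 10 of 12 higher and 5 raised (41.7% against 21.3%), with a median of 0.0209. Without Halo-SMCHD1 replicate 1 this list had 7 of 12 higher (58.3%) and a median of 0.0155. In that setting 37.3% of fast, 65.9% of middle and 77.1% of slow genes were higher. Membrane traffic had 14 of 15 higher but a median of 0.0060, below that of all genes, and without LRIF1 KO replicate 2 it had 7 of 15 higher and a median of -0.0013. Kinases and signalling had 14 of 19 higher and 5 raised, chromatin and transcription 15 of 21 and 4, metabolic enzymes 10 of 12 and 3, mitochondria 8 of 10 and 1, and the ubiquitin pathway 5 of 7 and 2. Without LRIF1 KO replicate 2 these counts also dropped below the majority in kinases and signalling (9 of 19), chromatin and transcription (10 of 21) and the ubiquitin pathway (2 of 7). The speed classes dropped in that setting as well, to 28.9% (fast), 50% (middle) and 67.5% (slow). These drops are therefore not particular to the lists. In each of these 8 lists 0 members passed the limma test at an adjusted p under 0.05. At an unadjusted p under 0.05 the most were in cell division, DNA repair and cytoskeleton, with 5 of 12 against 11.2% over all genes.

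Several members with the highest differences in their lists overlapped between the lines. Hmgb3, a chromatin protein of the HMG box family, was at 0.132 and 0.0522 in LRIF1 KO and at 0.0781, 0.0544 and 0 in Halo-SMCHD1. Fundc1, a receptor of mitophagy, was at 0.133 and 0.186 against 0.0652, 0.0920 and 0.137, so only Halo-SMCHD1 replicate 3 reached the LRIF1 KO libraries. The kinase Pim2 was at 0.0476 and 0.177 against 0.0571, 0.0625 and 0.0441, a difference that rested on LRIF1 KO replicate 2. Uba1, the main ubiquitin-activating enzyme, was at 0.0915 and 0.139 against 0.0571, 0.102 and 0.123, and the membrane protein Plp2 was at 0.123 and 0.134 against 0.0646, 0.142 and 0.0884. The deubiquitinase Usp11 was raised by a small margin, at 0.0417 and 0.0364 against 0.0276, 0.0296 and 0.0288. Dynlt3, a dynein light chain, kept a high fraction in both lines, at 0.799 and 0.769 against 0.778, 0.794 and 0.706, and was already at 0.869 and 0.904 before induction in Halo-SMCHD1 and LRIF1 KO.

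Most raised genes were also higher when SMCHD1 itself was deleted. SMCHD1 KO was compared with iXist-ChrX, its own parent, at day 7 with 2 libraries each, so this comparison shares no library with that of LRIF1 KO. Of the 53 raised genes 46 were higher in SMCHD1 KO (86.8%), against 69.1% of all genes, and 25 had no overlap (47.2%), against 27.7%. Over all genes 19 (7.63%) were lower in SMCHD1 KO without overlap, and 2 (0.803%) had a limma adjusted p under 0.05. The median difference of the raised genes was 0.0388 in SMCHD1 KO against 0.0107 over all genes. Flna was at 0.106 and 0.135 in SMCHD1 KO and at 0.0305 and 0.0193 in iXist-ChrX, and Emd at 0.120 and 0.213 against 0.0690 and 0.0333. Nkap was at 0.275 and 0.356 against 0.198 and 0.173. In contrast Nudt10, at 0 and 0.0385 in SMCHD1 KO and 0 and 0.0556 in iXist-ChrX, and Tenm1, at 0.0417 and 0.0156 against 0.0254 and 0.0526, were not higher there.

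The changes were distributed differently along the chromosome in the 2 knock-outs, although this difference was not tested. In SMCHD1 KO the mean difference was 0.0305 from 70 to 80 Mb and 0.0328 from 100 Mb on, where LRIF1 KO differed by 0.0105 and 0.0021. From 0 to 10 Mb it was 0.0143 in SMCHD1 KO and 0.0249 in LRIF1 KO. Each knock-out is set against its own parent here, so differences between the controls enter this contrast and cannot be told apart from it. Against iXist-ChrX, LRIF1 KO differed by -0.0088 from 0 to 10 Mb, 0.0023 from 70 to 80 Mb and 0.0055 from 100 Mb on. The test of the difference between the 2 effects, an interaction contrast in limma, gave 0 genes with an adjusted p under 0.05 and 6 with an unadjusted p under 0.05.

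**Figure D5:**
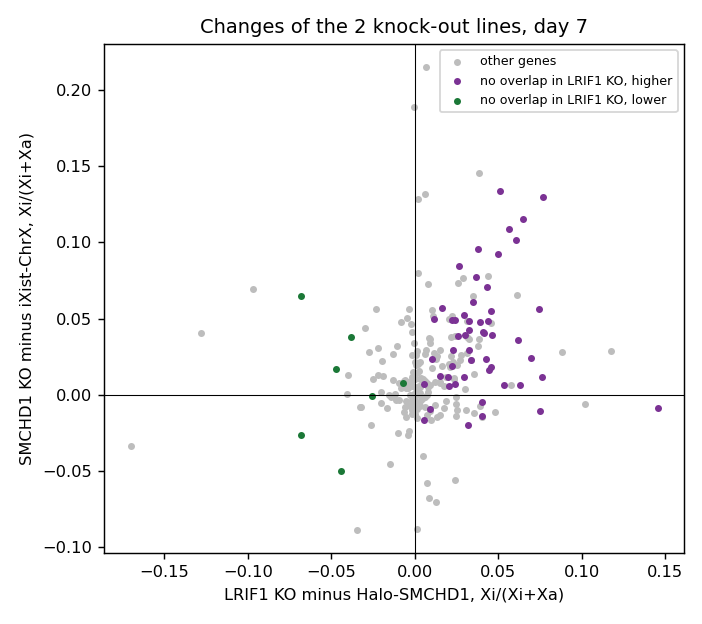
Change in Xi/(Xi+Xa) at day 7 of each gene except Xist in LRIF1 KO (horizontal axis, minus Halo-SMCHD1) and in SMCHD1 KO (vertical axis, minus iXist-ChrX), both as fractions. Of the 53 purple genes raised in LRIF1 KO, 46 lie above 0 on the vertical axis, and of the 7 green fallen genes 4 do.

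The plot of both knock-outs shows a loose relation, with a Spearman correlation of 0.318 and a Pearson correlation of 0.236 over 249 genes measured in the same libraries. When LRIF1 KO was set against iXist-ChrX instead of its own parent, 109 of 249 genes were higher (43.8%), and 31 were higher and 44 lower without overlap (12.4% and 17.7%). This comparison uses the same LRIF1 KO libraries. Nkap and Araf exceeded iXist-ChrX by 0.0644 and 0.05, whereas Haus7 and Chst7 differed from it by -0.000878 and 0.000621. Among the fallen genes Mospd1 differed from iXist-ChrX by -0.0564 and Pdzd11 by -0.0167.

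At 24 h with dox, with 1 library per line and no test, the median fraction was 0.257 for LRIF1 KO and 0.237 for Halo-SMCHD1. Of the 53 raised genes 35 were higher in LRIF1 KO at 24 h (66.0%), against 57.8% of all genes, and before induction 24 were higher (45.3%), against 51.8%. Haus7 was at 0.399 against 0.339 at 24 h, Taz at 0.412 against 0.349 and Nkap at 0.389 against 0.369. Araf, at 0.359 against 0.380, and Emd, at 0.247 against 0.375, were lower at 24 h in LRIF1 KO. The Spearman correlation of the change at day 7 was 0.107 with that at 24 h and 0.0184 with that before induction, over the 249 genes.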

How the data were processed

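ChrRNA-seq libraries of LRIF1 KO (2) and Halo-SMCHD1 (3) at day 7 were compared. Groups came from the sample labels. The authors removed rRNA reads (bowtie2), aligned what was left with STAR to mm10 with its SNPs masked, divided uniquely aligned reads between 129S and Cast (SNPsplit) and counted them strand by strand over whole genes, introns included (featureCounts). What they deposited is, per gene and library, the fraction Xi/(Xi+Xa). The authors kept genes with 10 or more reads over SNPs and did not normalize between libraries. Depth is unknown.

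Replicates were averaged per gene. Two-sided exact permutation tests compared the library means. Single genes were tested with limma 3.58.1 in R 4.3.3 on log2((r + 0.01)/(1 - r + 0.01)) over 20 differentiated libraries in 9 groups, with Benjamini-Hochberg adjustment at 0.05. The limma step was first tested on simulated data. Python 3.11.15, scipy 1.17.1 and pandas 2.3.3 were used for the rest. Gene types are from GENCODE vM21 and promoters from RefSeq, matched by symbol or, for 9 genes, by synonym. The clone name of the iXist-ChrX columns is not in the labels, and they were matched by day and replicate number, as no other columns remained. 1 E147A library in the limma fit was matched to its group only.

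Named genes are the 14 highest and all negative differences among genes without overlap, the 6 with the smallest limma p, Xist, measured escape and Xist region genes, the gene that moved most in the segments with the highest and lowest mean change, and up to 3 per other list. The members, gene lists, segments and tests were chosen with earlier results of these data known. Alternatives were other scales, pseudocounts of 0.001 and 0.05, gene filters, centring of libraries, the 5 libraries alone, leaving out each library, the replicate number as a block and iXist-ChrX as control. The second deposited table, made with the K518E libraries, was not used.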

Additional observations from a re-analysis of the deposited data

Results flagged for a closer look

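In 3 of the 7 fallen genes (42.9%, against 27.7% of all genes) both SMCHD1 KO libraries lay above both libraries of iXist-ChrX. That direction is opposite to the one in LRIF1 KO. Pdzd11 differed by -0.0384 in LRIF1 KO and by 0.0381 in SMCHD1 KO, where its libraries were at 0.0635 and 0.0597 against 0.0220 and 0.0250. Its difference between the effects had the smallest p of all genes in limma (log2 odds -3.03, SE 0.62), with an adjusted p of 0.0739. 4930519F16Rik differed by -0.0682 in LRIF1 KO and by 0.0647 in SMCHD1 KO, and Stard8 by -0.00706 and 0.00763, both with an adjusted p of 1 in limma. None of the 3 passed the threshold of 0.05.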

How the results depend on the processing

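The mean difference of 0.0112 stayed above 0 on log2 odds, as the median over genes, under both gene filters and division by the value before induction. It turned to -0.000628 with iXist-ChrX as the control and ranged from 0.00377 to 0.0187 with 1 library left out. Genes with an adjusted p under 0.05 (0) became 1 in the fit of only the 5 libraries (Prickle3, adjusted p = 0.0422 by limma, up to 0.78 under the other alternatives) and ranged from 0 to 1 with 1 library left out. Genes higher at an unadjusted p under 0.05 (25) became 15 in the fit of only the 5 libraries and 8 with libraries centred, and ranged from 15 to 32 with 1 library left out. Genes lower at that p (3) became 1 on untransformed fractions, 1 without genes listed at 0 and 11 with libraries centred, and ranged from 1 to 5. Raised genes (53) became 25 with libraries centred and 31 against iXist-ChrX, and ranged from 58 to 130, where fewer libraries leave fewer ways to overlap. Fallen genes (7) became 30 with libraries centred, 3 without genes listed at 0 and 44 against iXist-ChrX, and ranged from 9 to 41. Without Halo-SMCHD1 replicate 1 they numbered 28. Without LRIF1 KO replicate 2, 7 of 11 segments had a mean above 0. Without Halo-SMCHD1 replicate 1, 8 did, and without Halo-SMCHD1 replicate 2, 11 did.

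With the replicate number as a block, 44 genes were higher at an unadjusted p under 0.05, and the mean difference over replicates 1 and 2 was 0.0157. Deviations of same-numbered libraries from their group means had correlations of 0.093 and -0.177. With 2 LRIF1 KO libraries the deviations mirror each other, so these values cannot decide whether same-numbered libraries are paired.

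Segments that turned below 0 were 20 to 30 Mb (-0.000664 to 0.0316 with 1 library left out), 50 to 60 Mb (-0.00945 without LRIF1 KO replicate 2, -0.00473 when Halo-SMCHD1 replicate 1 was left out, up to 0.0112, -0.000309 by the median, -0.0789 on log2 odds), 60 to 70 Mb (-0.00191 without Halo-SMCHD1 replicate 1 and -8.95e-05 without LRIF1 KO replicate 1, up to 0.00537, -6.54e-05 by the median, -0.0342 on log2 odds), 80 to 90 Mb (-0.0107 without LRIF1 KO replicate 2, -0.00565 when Halo-SMCHD1 replicate 1 was left out, up to 0.0226, -0.0521 on log2 odds), 90 to 100 Mb (-9.5e-06 to 0.0113) and beyond 100 Mb (-0.00194 to 0.00615). Of 587 limma differences of the 43 named genes under alternatives, 10 turned. With libraries centred these were Eif2s3x (-0.18), Utp14a (-0.0785), Uba1 (-0.0043) and Dynlt3 (-0.15), and under the block Chic1 (0.11) and Dynlt3 (-0.0998). With 1 library left out Xist ranged from -0.0488 to 0.0018, Chic1 from -0.48 to 0.17, Dynlt3 from -0.016 to 0.31 and Pim2 from -0.16 to 1.74. Their causes were not tested. Depth is unknown, so low fractions and values of 0 carry a counting error that cannot be given.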
